A study of Mus musculus with 4 samples.

Results

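The genes described here are 34 enzymes and regulators of cholesterol and fatty acid synthesis, chosen by name, out of 12193 genes that passed a filter on low values. Cholesterol and fatty acids are built from acetyl-CoA by enzymes whose genes share a set of transcription factors, the sterol regulatory element-binding proteins (SREBPs). An SREBP is made as a membrane protein of the endoplasmic reticulum, where the escort protein SCAP binds it. When sterols are plentiful, INSIG proteins hold this complex in place, and when sterols are scarce, it moves to the Golgi, where the factor is cut free and enters the nucleus. SREBP-2, from Srebf2, is known mainly for the cholesterol genes and SREBP-1, from Srebf1, mainly for the fatty acid genes. Macrophages use the pathway for membrane growth, and it is also tuned by inflammatory signals.

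All 34 genes were found among the 56004 gene rows of the tables, each on 1 row. All were annotated as protein coding and passed the filter, which asked that 2 or more libraries reach 1 FPKM. RNA was sequenced from mouse cells labelled Kupffer, a name for macrophages that reside in liver sinusoids, 48 h after they were given exosomes, which are small vesicles shed by cells. In 2 libraries, called PRL-3 libraries, the exosomes came from MC38-PRL-3 cells, a line of the mouse colon carcinoma MC38 named for the phosphatase PRL-3. In the other 2, called VT libraries, they came from MC38-VT cells, and the labels call this the control group. The labels do not spell out VT. They give 10 ug of exosomes beside the VT name, recorded here as the dose of both groups. They do not say how either line was made, whether it was a clone, or whether animals were pooled. No library of cells without exosomes was analysed here, so every difference below is one between PRL-3 and VT exosomes. The libraries of a group are called biological replicates, but what separates them is not stated, so the p values measure only the spread between these libraries.

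Whole-fragment steps in the low values gave a depth of 17000000 to 18300000 fragments per library. PRL-3 replicate 1 stood apart. The SD of its log2 ratio to each other library was 0.402 to 0.412, against 0.313 between the VT libraries, and its sum of FPKM was the lowest (675475 against 706702 to 725599 in the others). FPKM, fragments per kilobase of transcript scaled to a fixed total of fragments, is the unit of all levels given here. Of the macrophage markers, Lyz2, a lysozyme, stood highest, at 5916 to 6831 FPKM, while Mertk was at 0.02 FPKM or less in each library. Clec4f, Vsig4 and Timd4, the defining genes of Kupffer cells, were at 0 in each of the 4 libraries, so that identity rests on the labels.

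Most genes of the pathway had lower mean levels with PRL-3 exosomes than with VT exosomes. The mean was lower for 32 of the 34, against 46.6% of all tested genes. For 27 the PRL-3 group lay wholly below the VT group, the higher PRL-3 library being under the lower VT library. That order was found for 18.0% of all tested genes. No member had the PRL-3 group wholly above, an order seen in 24.3% of all tested genes. The differences were small. The median log2 difference (PRL-3 minus VT, with 1 added to each FPKM) was -0.33 over the members and 0.02 over all tested genes, and the members ran from -0.94 for Acat2 to 0.10 for Insig2. With the libraries being of whole cultures, fewer cells of one kind and less RNA per cell cannot be told apart.

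None of the 34 differences passed the test. The limma model, fitted over all 12193 genes, gave the members adjusted p values of 0.445 to 0.988, and 6 genes were called in all, or 0.0492% of those tested. At an unadjusted p under 0.05 there were 12 members, all lower in the PRL-3 libraries, where 3.85% of all tested genes were lower at that p. For a single gene, an exact permutation test of 2 against 2 libraries cannot give a two-sided p under 0.33, so none was used.

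**Figure D1:**
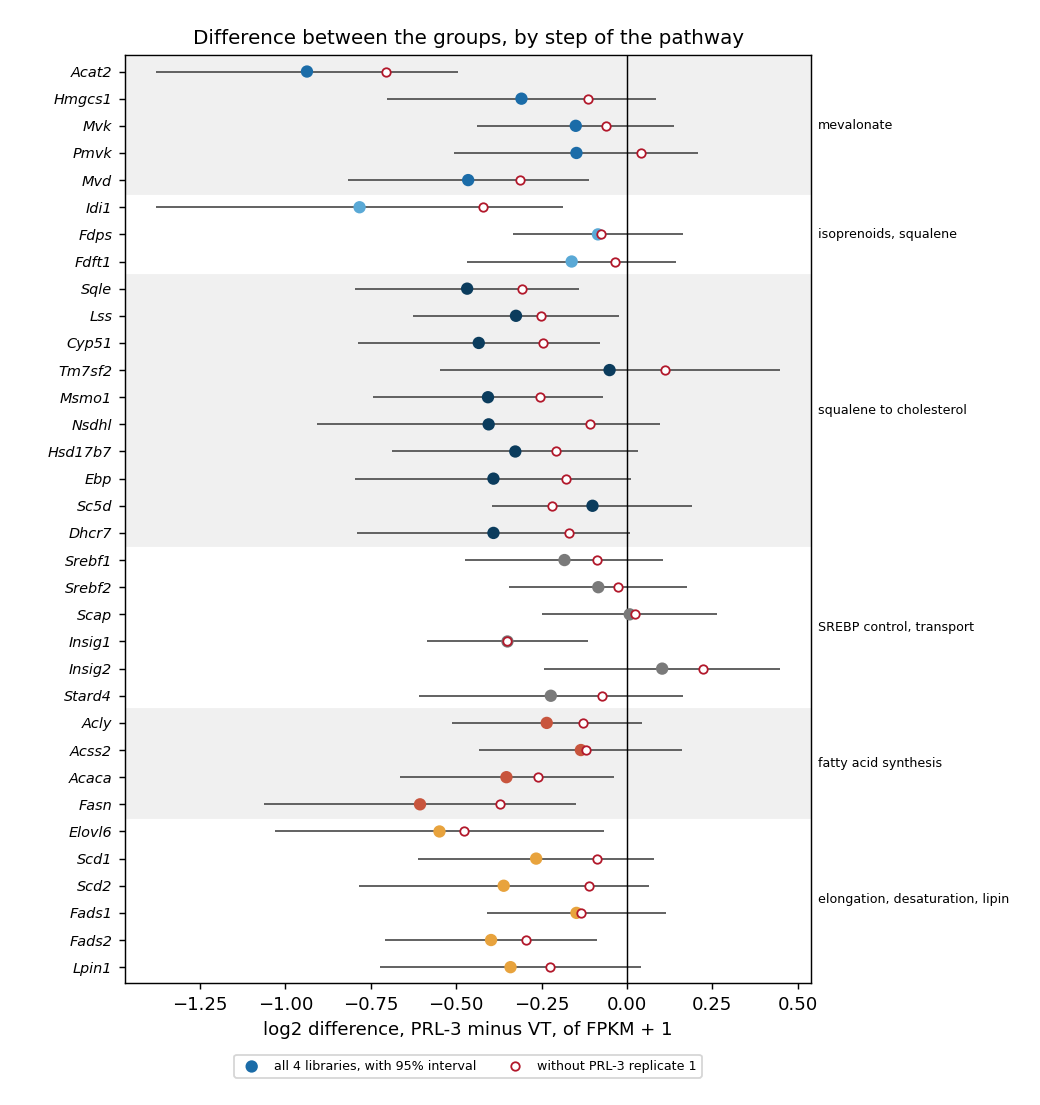
Log2 difference (PRL-3 minus VT, of FPKM + 1) of each of the 34 genes, ordered along the pathway, with the 95% interval from the limma fit as a line and the value without PRL-3 replicate 1 as an open circle. For 12 genes, among them Acat2, Idi1 and Fasn, the interval lies wholly below 0, and the open circles sit nearer to 0 for all genes but Insig1, Insig2, Sc5d, Scap and Tm7sf2.

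**Figure D2:**
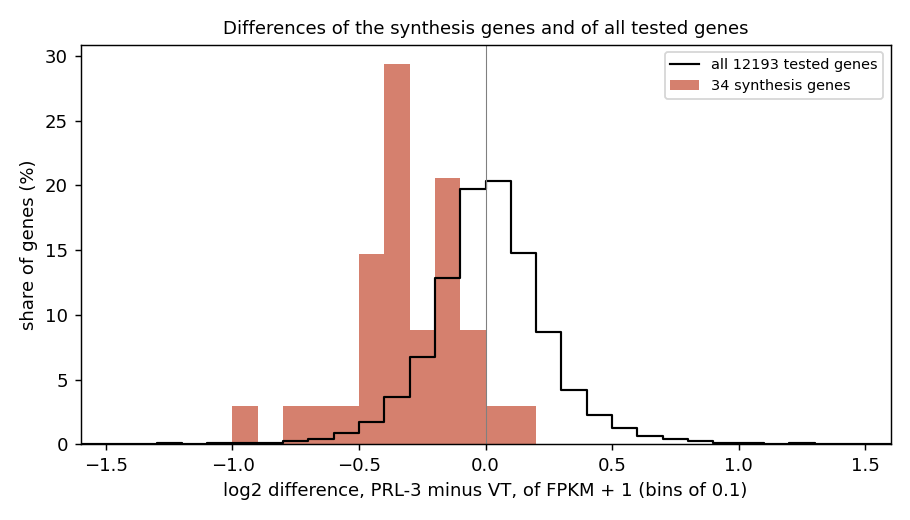
Share of genes (percent, vertical axis) in bins of 0.1 of the log2 difference for the 34 genes (filled bars) and all 12193 tested genes (black line). The members centre on a median of -0.33, and all tested genes on 0.02.

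The size of the difference depended on PRL-3 replicate 1. This library was the lowest of the 4 for 30 of the 34 genes, against 34.2% of all tested genes, and VT replicate 2 was the highest for 26, against 21.2%. Among the members the median log2 difference between the PRL-3 libraries, replicate 2 minus replicate 1, was 0.25, where it was 0.04 over all tested genes. For 16 genes the PRL-3 libraries differed from each other by more than the groups did, and for 6 genes the VT libraries did so. PRL-3 replicate 2 alone still lay below both VT libraries for 28 of the 34 genes, against 30.1% of all tested genes. Without PRL-3 replicate 1 the members' median was -0.15, and without PRL-3 replicate 2 it was -0.44.

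**Figure D3:**
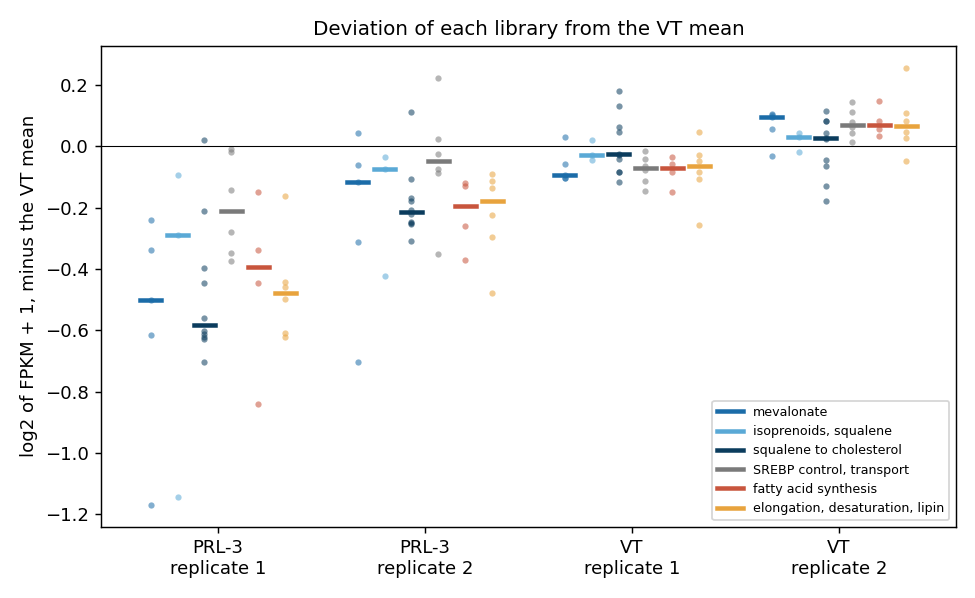
Each library's log2(FPKM + 1) minus the mean of the VT libraries, with 1 point per gene and a bar at the median of each group of steps. The bars of PRL-3 replicate 1 lie at -0.58 to -0.21 and those of PRL-3 replicate 2 at -0.21 to -0.05.

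Promoters are shown for the members whose windows held the sequence, in full or shortened, that gives SREBPs their name, the sterol regulatory element (SRE). RefSeq windows on GRCm38.p6, reaching 250 bases before and 50 after an annotated start, were matched by symbol for 27 of the 34 members, in 35 windows. Fads1, Fdft1, Fdps, Scd1, Scd2, Sqle and Stard4 had no entry. The element was searched as TCACNCCAC on both strands, and 1 member window held it, that of Hmgcs1, or 2.86% of the member windows against 1.24% of all 32851 windows. The search was then widened, after that result was seen, to the first 8 letters (TCACNCCA, in 3 member windows and 4.36% of all) and the last 8 (CACNCCAC, in 3 member windows and 6.24% of all), which both lie within the full element. The 5 promoters with any of these are given below, 5′ to 3′ on the gene's strand, as the 250 bases before the start, with the matched letters in capitals.
Acat2 (chr17:12960726-12960975, minus strand): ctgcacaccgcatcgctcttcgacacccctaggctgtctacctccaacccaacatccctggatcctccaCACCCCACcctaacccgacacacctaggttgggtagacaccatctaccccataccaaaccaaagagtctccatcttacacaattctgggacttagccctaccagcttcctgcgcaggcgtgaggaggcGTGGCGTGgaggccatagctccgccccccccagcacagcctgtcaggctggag
Hmgcs1 (chr13:119690101-119690350, plus strand): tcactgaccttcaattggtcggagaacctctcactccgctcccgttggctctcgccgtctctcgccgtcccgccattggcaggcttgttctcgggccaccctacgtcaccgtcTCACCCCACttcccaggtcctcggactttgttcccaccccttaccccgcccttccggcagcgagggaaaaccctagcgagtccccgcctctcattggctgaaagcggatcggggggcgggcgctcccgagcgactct
Msmo1 (chr8:64733579-64733828, minus strand): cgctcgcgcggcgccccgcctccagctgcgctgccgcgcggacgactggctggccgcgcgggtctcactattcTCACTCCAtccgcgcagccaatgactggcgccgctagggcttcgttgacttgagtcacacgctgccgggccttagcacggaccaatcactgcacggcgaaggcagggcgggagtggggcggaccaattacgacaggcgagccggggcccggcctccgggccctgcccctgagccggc
Insig1 (chr5:28071162-28071411, plus strand): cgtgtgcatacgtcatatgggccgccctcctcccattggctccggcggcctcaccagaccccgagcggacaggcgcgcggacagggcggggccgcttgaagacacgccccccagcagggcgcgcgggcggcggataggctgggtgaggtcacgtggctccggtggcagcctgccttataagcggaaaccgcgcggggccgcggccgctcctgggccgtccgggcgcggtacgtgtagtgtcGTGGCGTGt
Srebf2 (chr15:82147019-82147268, plus strand): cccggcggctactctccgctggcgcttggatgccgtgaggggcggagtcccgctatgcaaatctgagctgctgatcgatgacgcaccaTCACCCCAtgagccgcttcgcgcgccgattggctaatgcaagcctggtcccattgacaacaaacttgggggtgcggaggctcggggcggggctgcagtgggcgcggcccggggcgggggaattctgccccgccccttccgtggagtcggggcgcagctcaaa

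The match of Hmgcs1 began 137 bases before the start, that of Srebf2 162 and that of Msmo1 177. Acat2 had one 181 bases before its start and another, on the opposite strand, 53 before, and the match of Insig1, also on the opposite strand, began 9 bases before. Searched on both strands, CCAAT, the letters of the box bound by NF-Y, a partner of SREBPs, stood in 21 of the 27 matched members (77.8%) and in 41.1% of all genes with a window. GGGCGG, the box bound by Sp1, stood in 22 (81.5%), against 38.2%. The 27025 genes with a window were not limited to protein-coding or tested genes, while all members were both. Windows with such matches are many among all genes, and a match is a description of the letters only.

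At the entry to the pathway, Acat2 showed the largest difference of all members. It encodes the cytosolic thiolase that joins acetyl-CoA units, and lies on chromosome 17 (12942890 to 12960747, minus strand, GRCm38). It was at 6.54 and 9.40 FPKM in PRL-3 replicates 1 and 2, against 14.87 and 17.10 in VT replicates 1 and 2, the order used for all values below. The PRL-3 group was well below, and the gap between the groups was wider than that within either. The PRL-3 mean was 49.9% of the VT mean, a log2 difference of -0.94 (standard error 0.18, limma adjusted p = 0.445). Without PRL-3 replicate 1 the difference was -0.71, and without PRL-3 replicate 2 it was -1.17 (limma adjusted p = 0.0413). That second value sets only the outlying PRL-3 replicate 1 against the VT pair and assumes that it varies as they do, a setting in which 100 genes were called over all, against 6 with all 4 libraries. Acat3, a close copy of the gene, was at 0.11 or less, and whether reads of the pair were split was not tested.

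The next enzymes lead to activated isoprene units. Hmgcs1, which makes HMG-CoA, was at 14.35 and 19.08 FPKM with PRL-3 exosomes and at 19.26 and 22.34 with VT exosomes. Only PRL-3 replicate 1 lay clearly lower, since replicate 2 was within 1 FPKM of VT replicate 1. The kinase Mvk was at 15.50 and 17.67 against 17.73 and 19.26 FPKM, again with the groups close to touching. The kinase Pmvk, at 21.33 and 28.06 against 27.84 and 26.63, overlapped, and PRL-3 replicate 2 was its highest library. The decarboxylase Mvd was at 15.85 and 19.79 against 23.02 and 26.77 FPKM. Its groups were separate, with a log2 difference of -0.47 (standard error 0.14, adjusted p = 0.488).

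Idi1, the isomerase that readies isoprene units for joining, had the next largest difference. It lies on chromosome 13 (8885501 to 8892451, plus strand). Its levels were 15.06 and 25.48 FPKM with PRL-3 exosomes and 33.42 and 35.57 with VT exosomes. The groups did not overlap, but PRL-3 replicate 1 was far below replicate 2. The log2 difference was -0.78 (standard error 0.24, adjusted p = 0.49), and -0.42 without that library. Without PRL-3 replicate 2 it was -1.14 (limma adjusted p = 0.0268), again a value of PRL-3 replicate 1 alone with its spread taken from the VT pair. Idi2, its relative, was at 0.16 or less.

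Fdps, which makes farnesyl diphosphate, was the most abundant member, at 289.2 and 293.1 FPKM against 302.5 and 315.4. The groups did not overlap, yet the log2 difference was only -0.09 (95% interval -0.33 to 0.16). A gene model on the same strand, Gm43738, overlaps 1124 of its 4208 exonic bases. Fdft1, squalene synthase, was at 15.29 and 18.46 against 19.19 and 18.66, with PRL-3 replicate 2 barely below the VT libraries. It shares 774 of 4227 exonic bases with Ctsb, the lysosomal protease cathepsin B, on the opposite strand, and without strand information the reads of the pair cannot be told apart. Along this stretch Idi1 stood well below its VT level, while Fdps and Fdft1, which follow it, were close to theirs. Mvd, the step before Idi1, was also lower, at a log2 difference of -0.465.

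From squalene to cholesterol, all 10 genes had lower means with PRL-3 exosomes, against 46.6% of all tested genes. In 8 of them the PRL-3 group lay wholly below, against 18.0% of all tested genes. The median log2 difference of the 10 was -0.39. Sqle, squalene epoxidase, one of the slow steps of the pathway, was at 30.22 and 37.94 FPKM against 45.81 and 48.67. The PRL-3 group lay wholly below, by a log2 difference of -0.47 (standard error 0.13, adjusted p = 0.474). Lss, which closes the sterol rings, was at 22.73 and 25.28 against 27.88 and 32.87. Cyp51, the lanosterol demethylase, was at 17.08 and 22.42 against 26.27 and 27.34. For these genes the order was the same, with PRL-3 replicate 1 lowest and VT replicate 2 highest. Msmo1, a methylsterol oxidase whose promoter is printed above, shared it, at 48.92 and 60.73 FPKM against 68.48 and 76.97. Its log2 difference was -0.41, close to that of Cyp51 (-0.43) and of Lss (-0.325).

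In the enzymes that follow, PRL-3 replicate 2 lay nearer to the VT libraries than PRL-3 replicate 1 did. Nsdhl, a sterol dehydrogenase, was at 10.41 and 16.26 FPKM with PRL-3 exosomes, against 18.42 and 16.79 with VT exosomes. Hsd17b7, a sterol ketone reductase, was at 10.25 and 12.27 against 15.77 and 13.01. For both, PRL-3 replicate 2 was within 1 FPKM of VT replicate 2. Ebp, a sterol isomerase, was at 14.17 and 19.39 against 20.76 and 23.44, and Dhcr7, which carries out the last reduction of one branch, at 11.97 and 16.63 against 18.49 and 19.16. These 2 had equal log2 differences of -0.39 and the same order of libraries. The exceptions on this stretch were Sc5d and Tm7sf2. Sc5d, a sterol desaturase, was at 44.42 and 37.47 against 45.26 and 42.45 FPKM, and Tm7sf2, a sterol reductase, at 2.47 and 3.34 against 3.55 and 2.55. Both overlapped, Sc5d being the only enzyme here whose lowest library was PRL-3 replicate 2. Tm7sf2 was the least abundant member, resting on about 119 fragments in its lowest library, and it shares 532 of 4403 exonic bases with Vps51.

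**Figure D4:**
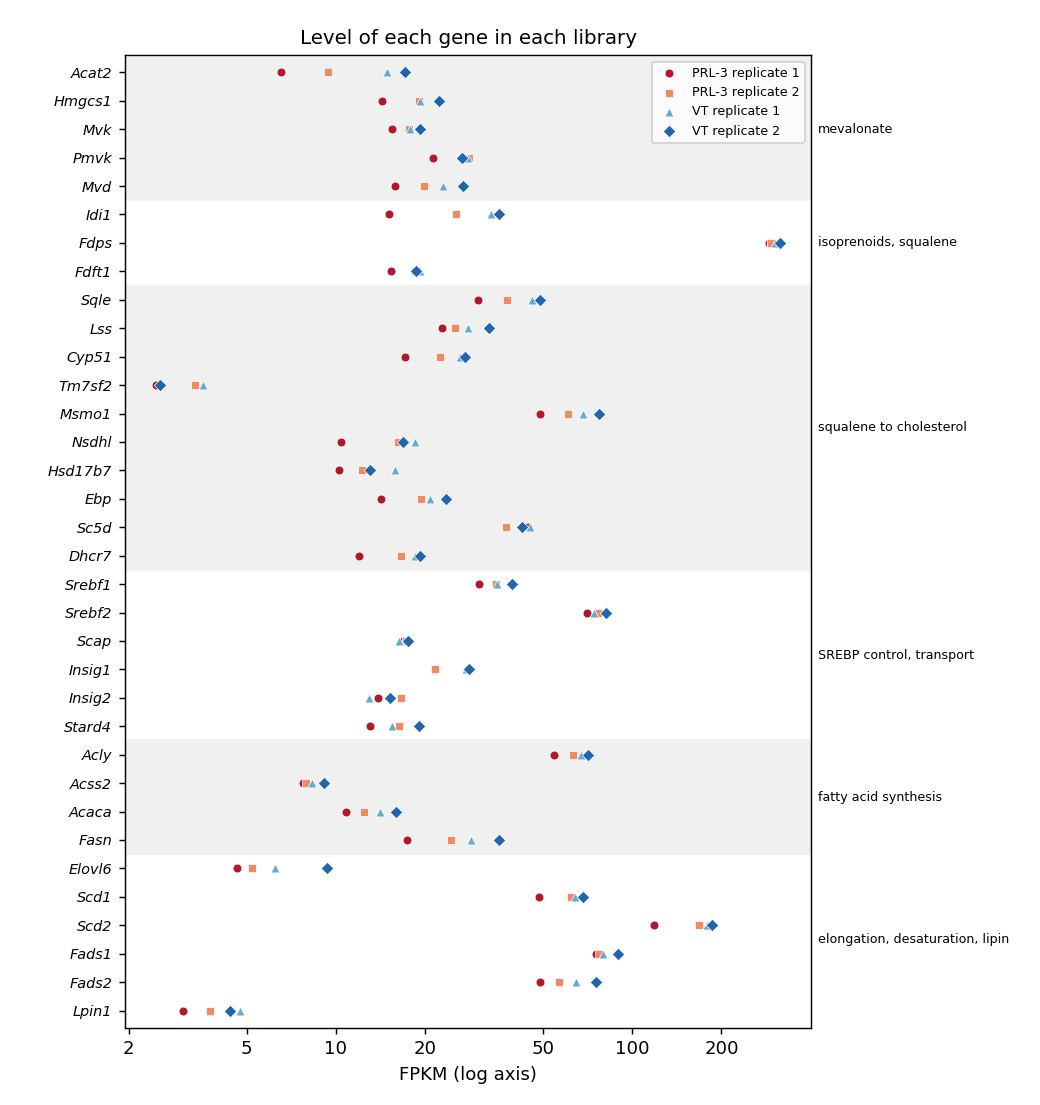
FPKM (log axis) of each of the 34 genes in each of the 4 libraries, in the order of the pathway. Red and orange marks (PRL-3) lie left of blue marks (VT) for most enzymes, while the marks of Scap, Srebf2 and Insig2 are mixed, and Fdps is the highest gene, at 289.2 to 315.4 FPKM.

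The genes that control the SREBPs or carry sterols had a median nearer to 0, at -0.13 over 6 genes, of which 2 had the PRL-3 group wholly below and 0 wholly above, against 18.0% and 24.3% of all tested genes. Whether the enzymes and these genes differ from each other was not tested. Srebf2 was at 70.42 and 76.42 FPKM with PRL-3 exosomes and 74.47 and 81.33 with VT exosomes, with overlap. Its log2 difference of -0.08 had a 95% interval of -0.345 to 0.177. Srebf1, the other factor gene, was at 30.33 and 34.79 against 35.02 and 39.14. Its groups were just apart, at a log2 difference of -0.18 (95% interval -0.47 to 0.11). Scap was at 16.81 and 17.21 against 16.38 and 17.45 FPKM, the closest match of all members (0.01, interval -0.25 to 0.26), and its sign turned with median-ratio scaling (-0.023). The transcripts do not report how much of each factor was cut and active.

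Of the INSIG genes, Insig1, itself a classical SREBP target, was at 21.62 and 21.59 FPKM with PRL-3 exosomes, against 27.53 and 28.11 with VT exosomes. Both groups were tight and well apart. The gene lies on chromosome 5 (28071363 to 28078662, plus strand). Its log2 difference was -0.35 (standard error 0.10, adjusted p = 0.473), and it stayed between -0.37 and -0.34 when any 1 library was left out. Insig2, whose transcript in liver is known for its response to insulin rather than to SREBP, was at 13.84 and 16.57 against 12.91 and 15.26. It overlapped, and had the only higher mean above 0.05 on the log2 scale (0.10, interval -0.24 to 0.45), but the sign turned without PRL-3 replicate 2 (-0.019) or VT replicate 1 (-0.01). Stard4, a carrier of sterols between membranes, was at 13.04 and 16.29 against 15.44 and 19.12, also with overlap.

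The fatty acid branch showed the same order throughout. All 10 of its genes, from acetyl-CoA supply to lipin, had the PRL-3 group wholly below the VT group, against 18.0% of all tested genes. Their median log2 difference was -0.35, beside -0.36 for the 18 cholesterol enzymes. Acly, which splits citrate into acetyl-CoA, was at 54.32 and 62.94 FPKM against 67.35 and 70.67. Acss2, which makes acetyl-CoA from acetate, was at 7.74 and 7.92 against 8.32 and 9.09, a gap smaller than 1 FPKM between the nearest libraries. Acaca, which forms malonyl-CoA, was at 10.78 and 12.40 against 14.14 and 16.00. The log2 differences were -0.235 for Acly, -0.135 for Acss2 and -0.353 for Acaca, and that of the synthase that follows was larger. Fasn, which assembles palmitate, was at 17.36 and 24.42 FPKM with PRL-3 exosomes and 28.65 and 35.46 with VT exosomes. The PRL-3 mean was 65.2% of the VT mean, with wide spread inside both groups (log2 difference -0.61, standard error 0.19, adjusted p = 0.487). Without PRL-3 replicate 1 the difference of Fasn, which lies on chromosome 11 (120805846 to 120824547, minus strand), was -0.37.

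Among the elongation and desaturation genes, Elovl6, which extends palmitate, was at 4.63 and 5.22 FPKM against 6.25 and 9.34. Here the spread lay within the VT group, whose libraries differed by 0.51 on the log2 scale, nearly as much as the groups (-0.55). Scd1 and Scd2, the desaturases that make oleate and palmitoleate, were abundant. Scd1 was at 48.29 and 62.01 against 63.87 and 68.25, and Scd2 at 118.9 and 168.3 against 178.4 and 185.6. In both, PRL-3 replicate 1 was far below the other 3 libraries, which lay close together. Their copies Scd3 and Scd4 were at 0.28 FPKM or less. Fads1, the delta-5 desaturase of polyunsaturated fatty acids, was at 75.56 and 77.01 against 79.78 and 89.78, and its neighbour on chromosome 19, the delta-6 desaturase Fads2, at 49.02 and 56.56 against 64.56 and 75.20. Fads2 had the larger difference of the pair, -0.40 against -0.15. Fads3, a related gene named after its values were seen, was at 4.06 and 4.87 against 1.61 and 2.82, with the PRL-3 group wholly above (log2 difference 0.79, limma adjusted p = 0.474). Lpin1, a phosphatidate phosphatase that is also a known SREBP target, was at 3.05 and 3.76 against 4.75 and 4.38, again with separate groups.

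Other genes of sterol and fatty acid metabolism, from a list drawn up by role, had a median nearer to 0. Of 20, 19 were tested, and 14 had lower means with PRL-3 exosomes (46.6% of all tested genes). In 5 the PRL-3 group lay wholly below (26.3%, against 18.0% of all tested genes) and in 1 wholly above (24.3% of all tested genes). Their median log2 difference was -0.05 and none passed (3 at an unadjusted p under 0.05). The most abundant were Elovl1, an elongase of long fatty acids, at 127.8 and 118.9 against 117.6 and 117.2 FPKM, and Npc2, a lysosomal sterol carrier, at 103.7 and 95.08 against 103.1 and 99.75. Mid1ip1, a partner of acetyl-CoA carboxylase, was at 51.22 and 72.77 against 72.23 and 63.84, and Npc1, a lysosomal sterol exporter, at 72.84 and 54.32 against 54.76 and 53.66. Of these 4, Elovl1 had separate groups, with the PRL-3 libraries just above. Lbr, which has the same reductase activity as Tm7sf2, was chosen after its values were seen, at 21.27 and 22.62 against 29.19 and 29.87, with the PRL-3 group wholly below (log2 difference -0.41, limma adjusted p = 0.445). Mbtps1 and Mbtps2, the proteases that cut SREBPs free, also named after their values were seen, were at 29.19 and 31.10 against 30.87 and 31.43, and at 26.72 and 26.57 against 26.16 and 27.89, and overlapped.

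Genes for sterol efflux and esterification had a median log2 difference of 0.07. Of 8 tested, 0 had the PRL-3 group wholly below, against 18.0% of all tested genes, and 4 had it wholly above, against 24.3%. Whether they differ from the synthesis genes was not tested, and none was called by limma or had an unadjusted p under 0.05. Soat1, which esterifies cholesterol, was at 269.3 and 207.6 FPKM against 219.6 and 231.8, Nceh1, an ester hydrolase, at 56.74 and 34.02 against 50.86 and 54.62, and Lpcat3, a phospholipid acyltransferase, at 35.01 and 36.07 against 34.49 and 34.34. The first pair overlapped and Lpcat3 was higher by a narrow margin.

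Other measures differed between the groups in the same libraries. A proliferation list was counted because an earlier result of these data had such genes lower. Its direction was thus known beforehand, and its counts are a description only. All 23 of its genes had lower means with PRL-3 exosomes (46.6% of all tested genes), at a median of -0.37. Of them, 21 had the PRL-3 group wholly below (18.0% of all tested genes). None was called by limma, and 13 were lower at an unadjusted p under 0.05 (3.85% of all tested genes). Their summed level was 746 and 931 FPKM with PRL-3 exosomes, against 1080 and 1160 with VT exosomes, an order of libraries shared with most of the synthesis genes. The summed level of 8 stellate cell and fibroblast markers was 13.1 and 10.5 against 7.09 and 6.43 FPKM, and that of their defining markers Col1a1, Col1a2 and Col3a1 1.83 and 1.85 against 0.01 and 0.03, Col1a2 and Col3a1 being at 0 in both VT libraries. Of the 8, 1 (Lrat) was at 0 throughout. Dcn, the most abundant of them, overlapped, at 6.63 and 4.32 against 5.44 and 4.65 FPKM. Acta2 and Tagln, the other 2 of the 3 tested, had the PRL-3 group wholly above (24.3% of all tested genes). Their log2 differences were 0.77 and 0.78. The 8 macrophage markers summed to 7910 and 8020 against 9040 and 9100, most of it Lyz2. Of the 7 tested, Lyz2 and Cd14 had the PRL-3 group wholly below (28.6%, against 18.0% of all tested genes). Fcgr1 had it wholly above (log2 difference 0.39), an order seen in 24.3% of all tested genes. The median of the 7 was -0.06. The 10 Kupffer cell markers, 5 of them at 0 throughout, summed to 2.99 and 1.39 against 4.90 and 4.67. Most of that was Cd5l, the only marker of the 10 to pass the filter, at 2.36 and 1.05 against 3.52 and 3.51. The part of these list differences in the lower synthesis genes was not tested. Hepatocyte, endothelial, epithelial and lymphocyte markers summed to 0.55 FPKM or less per list and library.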

How the data were processed

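RNA-seq libraries of mouse cells labelled as Kupffer cells were compared, 2 given MC38-PRL-3 exosomes and 2 given MC38-VT exosomes. The tables deposited by the authors give a level for every gene with 2 decimals, read here as FPKM because column sums differed and low values stepped in whole fragments scaled by transcript length. The unit itself is named nowhere in the labels. The submitters' notes name RSEM, DESeq2 and mm10. For the aligner, nothing was given in the sources used here. No strand marking is stated. Genes whose FPKM reached 1 in at least 2 libraries were tested on log2(FPKM + 1) with limma 3.58.1 (R 4.3.3, trend and robust moderation) and Benjamini-Hochberg adjustment over 12193 genes, with an adjusted p under 0.05 as a call. The scripts were tested on simulated data. The pseudocount understates differences of low genes. Depth was fitted from genes with 1 transcript, for which 90.9% to 93.6% of low values came within 0.2 fragments of a whole number (40% by chance). Of the members, 9 stood on rows of assembled transcripts. Positions are from GENCODE M21 (GRCm38). Members, lists and tests were chosen with earlier results of these data known. All members are named, other genes by abundance within their list, and exceptions are stated in the text. Exons of 12 members overlap another gene, 9 on the opposite strand.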

Additional observations from a re-analysis of the deposited data

How the results depend on the processing

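In the 13 alternatives that bear on it, the members' median log2 difference kept its sign, and it moved by more than the spread between replicates (0.13) only without PRL-3 replicate 1. Leaving out 1 library gave medians of -0.44 to -0.15. It also gave 28 to 31 members below the VT libraries, but with 1 library fewer that order is easier to meet, and the share of all genes was 28.8% to 39.9%, against 18.0% with all libraries. Other alternatives gave 25 to 28, where the share of all genes with that order was 12.8% to 22.7%. With a mean of 5 or more the count was 26 of 32 members tested. No member was called in 14 of 15 alternatives, and without PRL-3 replicate 2 there were 2, Idi1 (-1.14) and Acat2 (-1.17), with the lone PRL-3 library assumed to vary like the VT pair. How many members reached an unadjusted p under 0.05 also varied with the library left out. The share of all tested genes at that p was not counted for those fits. Over all genes, the 6 calls became 1 with a pseudocount of 0.1 or a mean of 5 or more, 0 with no filter or no robust moderation, and 10 with no mean-variance trend. They numbered 0 to 100 when 1 library was left out, with 2 and 100 without PRL-3 replicates 1 and 2. The replicate block gave 15 calls and no member. With it, 16 members had an unadjusted p under 0.05, against 12 in the main fit. The share of all tested genes at that p was not counted with the block. The smallest limma adjusted p of a member with the block was 0.0848, for Acat2. The deviations of same-numbered libraries had a correlation of -0.06 over all tested genes. Among the members, replicate 2 minus replicate 1 had a median of 0.25 in the PRL-3 group and 0.104 in the VT group. These values, from 2 libraries per group, cannot show whether the replicate numbers pair the libraries. The sign of 5 members near 0 changed in places. Scap was at -0.023 with median-ratio scaling and -0.003 with quantile normalisation. Over left-out libraries, Scap ranged from -0.035 to 0.051, Insig2 from -0.019 to 0.224, Pmvk from -0.338 to 0.042, Sc5d from -0.221 to 0.019 and Tm7sf2 from -0.230 to 0.128. The causes were not tested. With 2 libraries per group, precision is limited by their number.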
